A study of Mus musculus with 20 samples.

Results

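Postn, Sparc, Fn1, Fbn1, Eln, Lox, Loxl1, Dcn, Lum and Thbs2 encode proteins of the stromal extracellular matrix (ECM) that are not collagens. They were compared in the salivary glands of mice aged 4, 8, 12 or 16 weeks. A gene was taken from the probe sets annotated with its symbol and no other, and where it had several, the probe set of highest mean over the 20 arrays stood for it. Of these 10 genes, 9 had such a probe set, among 18194 genes measured. Fbn1, which encodes the microfibril protein fibrillin-1, had none in the annotation used here and has no value below. Each age group held 5 C57BL/6J mice that the labels call male, each hybridised to its own array as total RNA of salivary gland freed of lymph nodes. In the study these mice were the healthy controls for a related strain with Sjögren's syndrome-like autoimmunity, which is not analysed here, so every difference below is one of age within C57BL/6J mice. The labels name no treatment, and do not say which of the salivary glands were taken.

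The ECM of a gland is laid down mainly by fibroblasts, which line ducts, acini and vessels with collagen fibrils, elastic fibres and glycoproteins. Small leucine-rich proteoglycans such as decorin (Dcn) and lumican (Lum) bind collagen and set the width and spacing of fibrils. Fibronectin (Fn1) forms an adhesive network read by integrins, elastin (Eln) gives recoil on a scaffold of fibrillin, and the amine oxidases Lox and Loxl1 crosslink collagen and elastin. Periostin (Postn), osteonectin (Sparc) and thrombospondin 2 (Thbs2) are matricellular proteins, which modulate contacts between cells and matrix and are known for high levels in growing or healing tissue.

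Some facts of the arrays bear on what follows. Xist, the RNA of the inactive X chromosome in females, had log2 signals of 8.96 to 10.7 on the 20 arrays, at the 96.3 to 99.5 percentile of all genes. The Y-linked Eif2s3y had 2.07 to 2.97, at the 0.2 to 4.6 percentile, so both genes went against the label male. The other Y-linked genes checked, Kdm5d and Uty, lay at the 12.4 to 31.2 and the 30.9 to 59.4 percentile. The arrays of 5 mice stood apart by a median Pearson correlation with the others of 0.91 to 0.924, against 0.937 to 0.965 on the rest, namely mouse 5 at 4 weeks, mice 3 and 5 at 8 weeks and mice 2 and 4 at 16 weeks. The SD of all genes within an array, termed spread of signal here, was 1.55 to 1.90 at 4 weeks, 1.38 to 1.60 at 8 weeks, 1.60 to 1.67 at 12 weeks and 1.39 to 1.74 at 16 weeks. Of 10 measured salivary epithelial markers, 7 lay at the 96.2 to 100 percentile of mean signal, while Amy1 lay at 83.6, Dcpp1 at 50.5 and the keratin gene Krt19 at 13.8.

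Postn, Lum and Lox were lower at 16 than at 4 weeks, and the other 6 measured genes did not pass the test at any age. By limma with Benjamini-Hochberg adjustment over all genes, 2 of the 9 genes were lower at 8 than at 4 weeks and 0 were higher (Postn and Lum), where 7.39% of all genes were called, 4.13% lower and 3.26% higher. Between 8 and 12 weeks 0 of 9 passed the limma test, against 0.0055% of all genes, and 2 had an unadjusted p under 0.05, as had 18.8% of all genes. Between 12 and 16 weeks 1 was lower, Postn, where 0.192% of all genes were called and 0.187% were called lower. Across the whole span between 4 and 16 weeks 3 were lower (Postn, Lox and Lum), where 3.63% of all genes were called and 3.12% were called lower. Between 4 and 12 weeks 0 of 9 passed the limma test (2 at an unadjusted p under 0.05), against 0.0934% of all genes (9.03% unadjusted), and between 8 and 16 weeks 0 of 9 (1 at an unadjusted p under 0.05), against 0 of all genes (5.81% unadjusted). The median log2 difference of the 9 genes was -0.42 between 4 and 8 weeks, -0.11 between 8 and 12 weeks and -0.15 between 12 and 16 weeks, beside 0.050, -0.046 and -0.020 over all genes. A limma F test over the 4 ages called Postn and Lox, 2 of 9, where 2.6% of all genes were called. Neighbouring comparisons share the mice of an age, so a low or high age enters both.

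**Figure D1:**
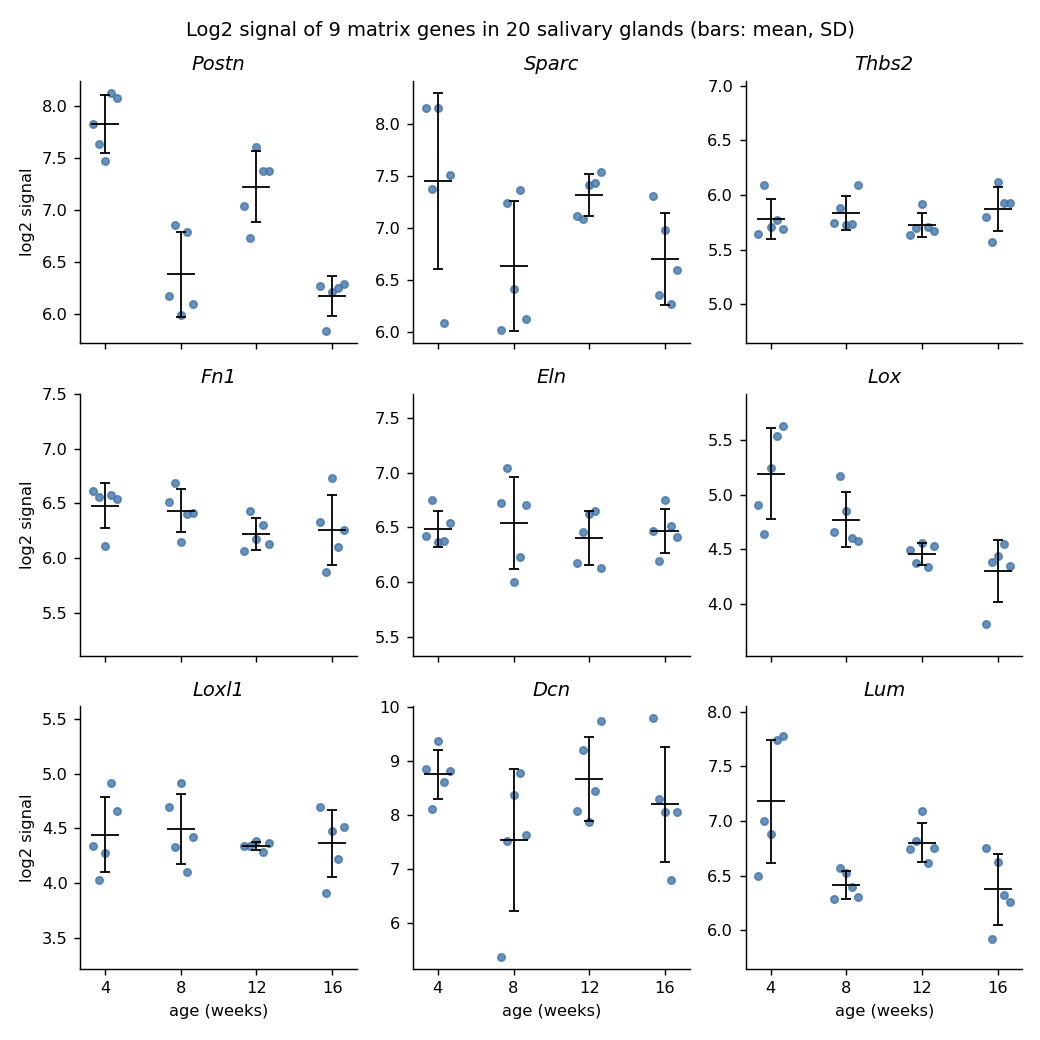
Log2 signal (y axis) by age in weeks (x axis) for the 9 measured genes, with a point for each of 5 mice per age and bars for the mean and SD; every panel spans at least 2.4 log2 units. Postn was high at 4 and 12 weeks and low at 8 and 16 weeks, Lox had a lower mean at each later age, and the points of Thbs2, Fn1, Eln and Loxl1 overlapped at all ages.

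Postn, which encodes periostin, a secreted partner of collagen and integrins, was shown with its promoters because the differences between ages turn on it. RefSeq lists a pair of start sites for it on chromosome 3 (GRCm38.p6, plus strand). For each, 250 bases before and 50 after the start are printed 5′ to 3′, with capitals for a match on either strand to TATAAA (the TATA box) or CCAAT.

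Postn, chr3:54359017-54359316: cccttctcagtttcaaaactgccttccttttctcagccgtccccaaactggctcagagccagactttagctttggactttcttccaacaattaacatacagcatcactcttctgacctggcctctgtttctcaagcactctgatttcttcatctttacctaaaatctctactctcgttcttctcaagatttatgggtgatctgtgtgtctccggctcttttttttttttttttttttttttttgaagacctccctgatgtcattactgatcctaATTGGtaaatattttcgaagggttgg

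Postn, chr3:54360857-54361156: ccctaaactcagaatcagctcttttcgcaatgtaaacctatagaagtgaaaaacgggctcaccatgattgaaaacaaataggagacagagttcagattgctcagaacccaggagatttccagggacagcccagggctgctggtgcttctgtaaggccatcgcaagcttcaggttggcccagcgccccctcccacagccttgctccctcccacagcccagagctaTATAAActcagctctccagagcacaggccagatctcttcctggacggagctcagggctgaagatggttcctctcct

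The downstream promoter held TATAAA at position -26 from the start and the upstream one held CCAAT, read on the opposite strand, at position 24. Over all 32851 promoters of this length in the table, 13.6% held TATAAA and 37.4% held CCAAT. None of TGANTCA (AP-1), GGAATG (TEAD) and GTCTAGAC (SMAD) was in either window, nor in those listed for Sparc and Thbs2, while Thbs2 held TATAAA on the opposite strand at position -126. These motifs were in 7.81%, 14.7% and 0.213% of all promoters. The matches are letters in a window and were not tested for binding.

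At 4 weeks the log2 signals of Postn in the 5 mice were 7.83, 7.63, 7.47, 8.13 and 8.08. At 8 weeks they were 6.17, 6.85, 5.99, 6.79 and 6.10. All 8-week values were thus below all 4-week values, with mice 2 and 4 the higher of the 8-week group. At 12 weeks they were 7.03, 6.73, 7.60, 7.38 and 7.37, and at 16 weeks 6.27, 5.83, 6.21, 6.25 and 6.29. The 16-week values were below all those at 12 weeks, whereas the 8- and 12-week values overlapped, as mouse 2 at 12 weeks was below mice 2 and 4 at 8 weeks.

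Postn fell by 1.45 on the log2 scale between 4 and 8 weeks (standard error 0.19, 95% interval -1.85 to -1.04, limma adjusted p = 0.0028), which is 2.73-fold lower. Between 8 and 12 weeks its difference was 0.84 (95% interval 0.44 to 1.25) and did not pass the test (limma adjusted p = 0.114). It then fell by 1.05 between 12 and 16 weeks (standard error 0.19, limma adjusted p = 0.0237), which is 2.07-fold lower, and over the span between 4 and 16 weeks by 1.66 (limma adjusted p = 0.00016), 3.15-fold lower. In order of mean level the ages ran 4, 12, 8 and 16 weeks, with means of 7.83, 7.22, 6.38 and 6.17. Neighbours in this order were not called by limma, with adjusted p-values of 0.379 between 4 and 12 weeks, 0.114 between 12 and 8 weeks and 0.933 between 8 and 16 weeks. Of all genes, 1.01% had a lower difference between 4 and 8 weeks and 0.588% between 4 and 16 weeks. Since whole glands were measured, fewer cells of a type and less RNA per cell cannot be told apart. Without the 5 arrays that stood apart Postn had -1.16 between 4 and 8 weeks (limma adjusted p = 0.192), -0.97 between 12 and 16 weeks (0.211) and -1.51 between 4 and 16 weeks (0.00981), a fit that rests on 3 to 5 mice per age. The fall between 12 and 16 weeks also missed the threshold without any 1 of 7 mice (limma adjusted p = 0.0526 to 0.105). These were mice 1, 3, 4 and 5 at 12 weeks and 2, 4 and 5 at 16 weeks. The difference in these fits was -0.96 to -1.10, beside -1.05 with all mice. Of all genes 9 to 13 were called there, beside 35 with all mice, and the adjustment runs over all genes.

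**Figure D2:**
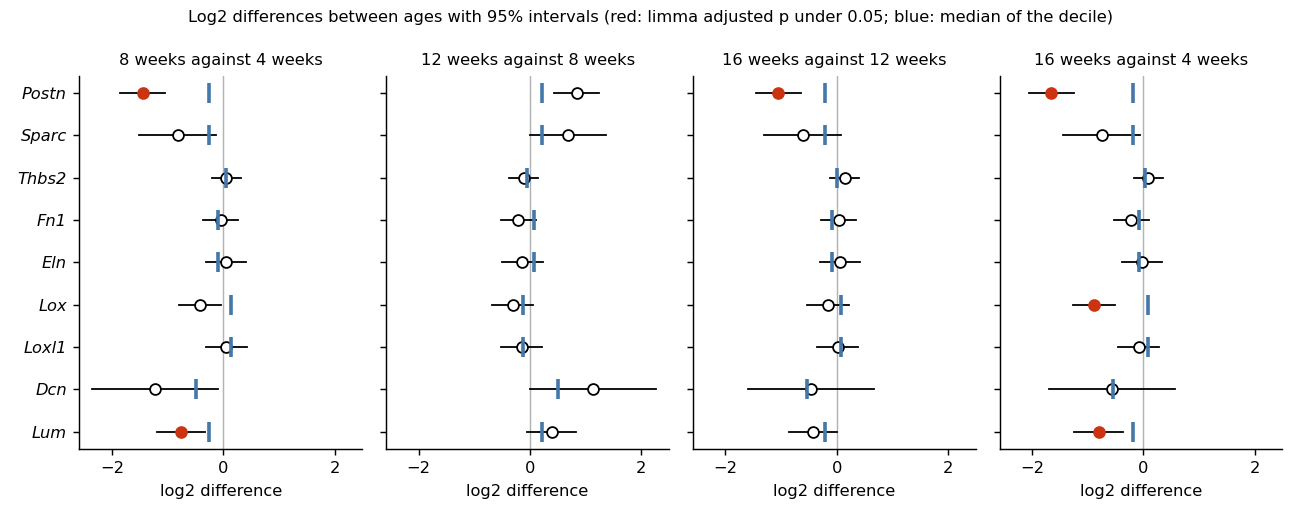
Log2 difference, later minus earlier age (x axis), of the 9 genes (y axis) in 4 comparisons, with 95% intervals, red points for a limma adjusted p under 0.05 and blue marks for the median of all genes in the same decile of mean signal. Red points are Postn and Lum at 8 against 4 weeks, Postn at 16 against 12 weeks, and Postn, Lox and Lum at 16 against 4 weeks, all left of 0.

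Sparc, a collagen-binding glycoprotein of basement membranes and growing matrix, varied widely among mice of an age and was not called. Its values were 8.15, 7.37, 8.15, 6.09 and 7.50 at 4 weeks and 6.03, 7.23, 6.41, 7.36 and 6.13 at 8 weeks. The ages overlapped, since mouse 4 was the lowest of the 4-week group and mice 2 and 4 at 8 weeks lay inside its range. At 12 weeks the values were 7.12, 7.09, 7.41, 7.43 and 7.53, and at 16 weeks 7.31, 6.36, 6.98, 6.28 and 6.60. The log2 differences were -0.82 between 4 and 8 weeks, 0.68 between 8 and 12 weeks and -0.61 between 12 and 16 weeks (limma adjusted p = 0.102, 0.27 and 0.414).

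The reading of Sparc depended on the probe set. A second one, of mean signal 6.56 against 7.03, had 7.19, 7.42, 7.52, 8.39 and 8.64 at 4 weeks and 6.53, 7.20, 5.46, 6.44 and 5.23 at 8 weeks. There mouse 4 was among the highest of the 4-week group, in which it was the lowest by the first probe set. When each probe set was tested on its own, this one fell by 1.66 between 4 and 8 weeks and by 1.97 between 4 and 16 weeks (limma adjusted p = 0.025 and 0.0128 over all probe sets). The remaining probe set had -0.15 and 0.054 in these comparisons (limma adjusted p = 0.604 and 0.889). Over the 20 arrays the first and second had a Pearson correlation of 0.46, while the remaining one had 0.14 with the first and -0.13 with the second. With the mean of its 3 probe sets Sparc fell by 0.87 between 4 and 8 weeks (limma adjusted p = 0.023) and by 0.89 between 4 and 16 weeks (limma adjusted p = 0.0224).

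Thbs2, an inhibitor of vessel growth that also affects collagen fibrils, differed little between ages by the probe set used. Its 20 values lay between 5.57 and 6.11, a narrower range than that of any of the other 8 genes. The log2 difference was 0.055 between 4 and 8 weeks (95% interval -0.20 to 0.31, limma adjusted p = 0.772), and -0.11 and 0.14 in the following periods (limma adjusted p = 0.61 and 0.626). The upper bound of the interval between 12 and 16 weeks was 0.40 on the log2 scale. Dimmer probe sets of Thbs2, of mean signal 4.86 and 2.88, had 0.26 and 0.52 between 4 and 8 weeks (limma adjusted p = 0.235 and 0.058 over all probe sets). With averaged probe sets this difference was 0.28 (limma adjusted p = 0.0974).

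Fn1 and Eln, the fibronectin and elastin genes, were near the 72.9 and 75.9 percentile of mean signal and were not called at any age. Fn1 ranged from 5.87 to 6.73 and Eln from 6.00 to 7.04 over the 20 mice. Between 4 and 8 weeks the log2 difference of Fn1 was -0.048 (95% interval -0.36 to 0.27, limma adjusted p = 0.841) and that of Eln 0.053 (95% interval -0.31 to 0.42, limma adjusted p = 0.847). Between 4 and 16 weeks they were -0.22 and -0.024 (limma adjusted p = 0.382 and 0.948). Differences of the size seen for Postn lay outside these intervals. The other probe set of Fn1 had a mean signal of 2.70, far below the 6.35 of the one used.

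Lox, which encodes lysyl oxidase, was dim, at the 29.5 percentile of mean signal, and had a lower mean at each later age. Its values were 4.91, 4.64, 5.25, 5.53 and 5.63 at 4 weeks and 4.65, 5.17, 4.85, 4.60 and 4.58 at 8 weeks. These overlapped. At 12 weeks they were 4.50, 4.37, 4.56, 4.34 and 4.53, and at 16 weeks 3.82, 4.38, 4.44, 4.55 and 4.34, so that every 12- and 16-week value was below every 4- and 8-week value. The gap between the lowest value at 8 weeks and the highest at 12 weeks was narrow, as these were 4.58 and 4.56. Lox fell by 0.89 on the log2 scale between 4 and 16 weeks (standard error 0.18, limma adjusted p = 0.0153), which is 1.85-fold lower. Between 4 and 12 weeks its difference was -0.73 (95% interval -1.11 to -0.36, limma adjusted p = 0.173), and between 4 and 8 weeks -0.42 (limma adjusted p = 0.116). The fall between 4 and 16 weeks missed the threshold without mouse 4 or 5 at 4 weeks, the highest of that age. The differences were then -0.80 and -0.78 (limma adjusted p = 0.056 and 0.0584), with 103 and 91 of all genes called, beside 660 with all mice. Lox also missed it without the 5 arrays that stood apart (log2 difference -0.88, limma adjusted p = 0.163) and with averaged probe sets (-0.30, limma adjusted p = 0.15). Its 2 other probe sets had -0.22 and 0.20 in this comparison (limma adjusted p = 0.182 and 0.618 over all probe sets).

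Loxl1, the family member known for its part in elastic fibre assembly, ranged from 3.91 to 4.92 and was not called. Its log2 differences were 0.051 between 4 and 8 weeks (95% interval -0.32 to 0.42, limma adjusted p = 0.856) and -0.081 between 4 and 16 weeks (limma adjusted p = 0.807). At the 24.1 percentile of mean signal it was the dimmest of the 9 genes. Its other probe set, of mean signal 4.33 against 4.41, had 0.44 between 4 and 8 weeks and 0.21 between 4 and 16 weeks (limma adjusted p = 0.0505 and 0.349 over all probe sets). Over the 20 arrays the Pearson correlation of the Loxl1 probe sets was -0.13. Lox and Loxl1 thus had different values between 4 and 16 weeks by the probe sets used, but the difference between the genes was not tested.

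Dcn was the brightest of the 9 genes, at the 96.0 percentile, and the most variable. Its values were 8.86, 8.11, 9.38, 8.62 and 8.83 at 4 weeks, and 5.37, 7.52, 8.37, 8.79 and 7.64 at 8 weeks, where mouse 1 was far below the other 4. At 12 weeks they were 8.08, 9.21, 7.87, 8.46 and 9.74, and at 16 weeks 9.80, 8.29, 8.06, 6.79 and 8.07. All ages overlapped. The log2 differences were -1.22 between 4 and 8 weeks (95% interval -2.35 to -0.090), 1.13 between 8 and 12 weeks and -0.47 between 12 and 16 weeks (limma adjusted p = 0.128, 0.265 and 0.729). The SD among mice of an age was 0.96, against 0.17 to 0.58 for the other 8 genes, so that smaller differences could not be told from the spread at this number of mice. Without mouse 1 at 8 weeks the first difference was -0.68 (limma adjusted p = 0.291). A dimmer probe set of Dcn, of mean signal 5.10, had a log2 difference of 0.40 between 4 and 8 weeks (limma adjusted p = 0.0465 over all probe sets), opposite in sign to the one used.

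Lum, the keratan sulfate proteoglycan lumican, neighbours Dcn on chromosome 10 and had 1 probe set. Its values were 6.50, 6.996, 6.88, 7.74 and 7.78 at 4 weeks, 6.29, 6.57, 6.52, 6.40 and 6.30 at 8 weeks, 6.74, 6.82, 7.09, 6.61 and 6.75 at 12 weeks, and 6.75, 5.92, 6.62, 6.32 and 6.25 at 16 weeks. Mice 4 and 5 at 4 weeks were the highest of all, and mouse 1 at 4 weeks lay among the 8-week values. All 12-week values were above all 8-week values, though by a gap of 6.57 to 6.61. Lum fell by 0.76 on the log2 scale between 4 and 8 weeks (standard error 0.21, limma adjusted p = 0.0381) and by 0.81 between 4 and 16 weeks (limma adjusted p = 0.0407), which are 1.70-fold and 1.75-fold lower. Its difference between 8 and 12 weeks was 0.39 (limma adjusted p = 0.314). The first call was lost without mouse 4 or 5 at 4 weeks or mouse 3 or 5 at 8 weeks (limma adjusted p = 0.0857 to 0.133). The difference was -0.62 and -0.61 without those 4-week mice, and -0.79 and -0.73 without those 8-week mice. Of all genes 14 to 22 were called in these fits, beside 1345 with all mice, and the adjustment runs over all genes. Without the 5 arrays that stood apart the differences between 4 and 8 and between 4 and 16 weeks were -0.61 and -0.49 (limma adjusted p = 0.467 and 0.611). The call between 4 and 16 weeks was lost without any 1 of 10 mice (4 or 5 at 4 weeks, 1, 2, 4 or 5 at 12 weeks and 2, 3, 4 or 5 at 16 weeks; limma adjusted p = 0.05005 to 0.145). The difference was -0.67 and -0.66 without the 4-week mice named, and -0.69 to -0.87 without a 16-week mouse named. Mice at 12 weeks enter this comparison only through the shared estimate of the spread and the adjustment. Without any 1 of those 4 the difference stayed at -0.81 (limma adjusted p = 0.05005 to 0.0529).

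Genes whose values at a pair of ages did not overlap were counted too, and these were not always the genes that limma called. Lum overlapped in both comparisons in which it was called, while Lox was separate in comparisons in which it was not called. Between 4 and 8 weeks 1 of 9 genes (Postn) had all later values below all earlier ones, as did 1.96% of all genes, and 0 were separate upwards, as were 3.79%. Between 8 and 12 weeks Lum was separate upwards and Lox downwards, where 3.39% and 1.95% of all genes were. Between 12 and 16 weeks Postn was separate downwards, as were 1.86% of all genes. Between 4 and 16 weeks Postn and Lox were separate downwards, against 1.65% of all genes. Lox alone of the 9 was separate between 4 and 12 weeks and between 8 and 16 weeks, both downwards, where 0.78% and 0.775% of all genes were.

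**Figure D3:**
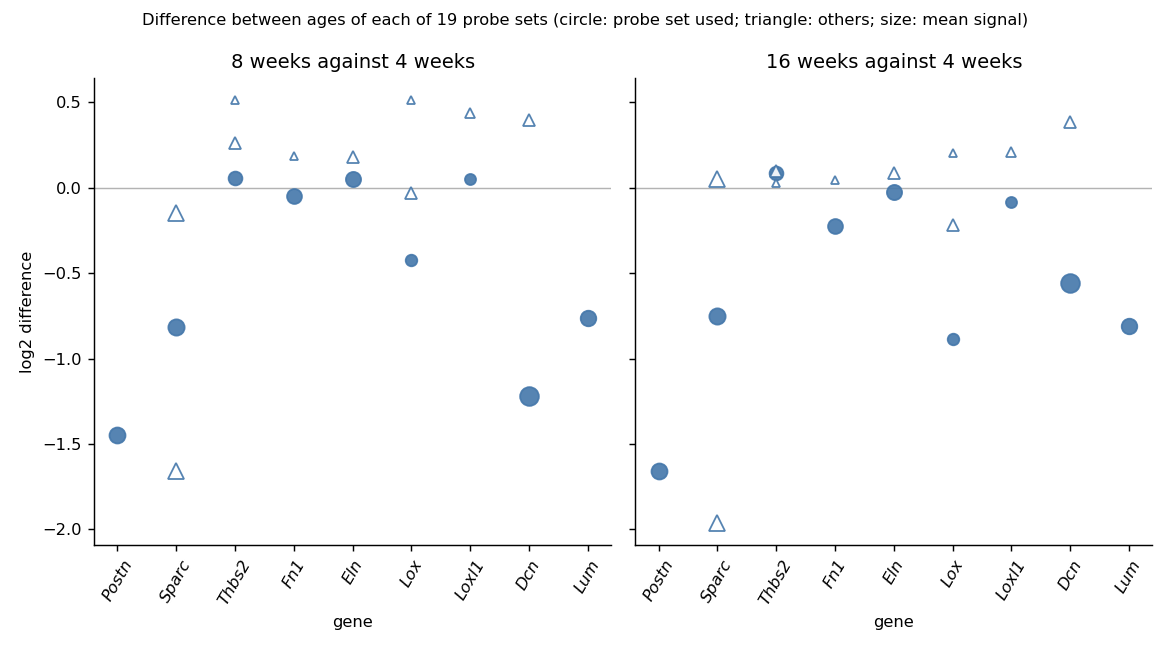
Log2 difference (y axis) of each of the 19 probe sets of the 9 genes (x axis), at 8 against 4 weeks and at 16 against 4 weeks, with circles for the probe set that stands for the gene, triangles for its others and symbol size for mean signal. The probe sets of Dcn and of Lox lie on both sides of 0, those of Sparc are spread from -1.97 to 0.054 at 16 against 4 weeks, and Postn and Lum have 1 each.

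Of the 9 genes, 7 had more than 1 probe set. Between 4 and 8 weeks the probe sets of 3 of these 7 genes differed in sign, and between 4 and 16 weeks those of 6 of 7. The share over all genes with several probe sets was not counted, so these counts have no background. Some of the signs rest on differences near 0, as for Eln with -0.024 and 0.084 between 4 and 16 weeks. Of the 19 probe sets, 3 were lower and 1 was higher between 4 and 8 weeks by limma, and 4 were lower and 0 higher between 4 and 16 weeks. Of all 34958 probe sets tested, 3.51% were lower and 2.93% higher between 4 and 8 weeks, and 2.82% and 0.687% between 4 and 16 weeks. The probe set of Postn and that of Lum are their 1 witness each on the array.

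Differences between ages also followed the brightness of a gene. In the brightest decile of genes the median log2 difference was -0.49 between 4 and 8 weeks, 0.50 between 8 and 12 weeks and -0.53 between 12 and 16 weeks, and in decile 9, which holds Postn, Sparc and Lum, it was -0.25, 0.21 and -0.21. The differences of Postn had the same signs as these medians and were larger, and that of Dcn between 12 and 16 weeks (-0.47) was near the median of its decile, the brightest. Lox, in decile 3, went the other way, as the median there was 0.14 between 4 and 8 weeks and 0.084 between 4 and 16 weeks. When the spread of signal entered the model, Postn fell by 1.25 between 4 and 8 weeks (limma adjusted p = 0.0132) and by 1.47 between 4 and 16 weeks (limma adjusted p = 0.000921), while its difference between 12 and 16 weeks was -0.91 (limma adjusted p = 0.0587). Lum then had -0.41 between 4 and 8 weeks and -0.48 between 4 and 16 weeks (limma adjusted p = 0.468 and 0.315), and Lox -0.83 between 4 and 16 weeks (limma adjusted p = 0.0516). Among mice of an age, the Pearson correlation with the spread of signal over 20 arrays was 0.65 for Lum and 0.40 for Postn, beside a median of 0.58 over genes of their decile.

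**Figure D4:**
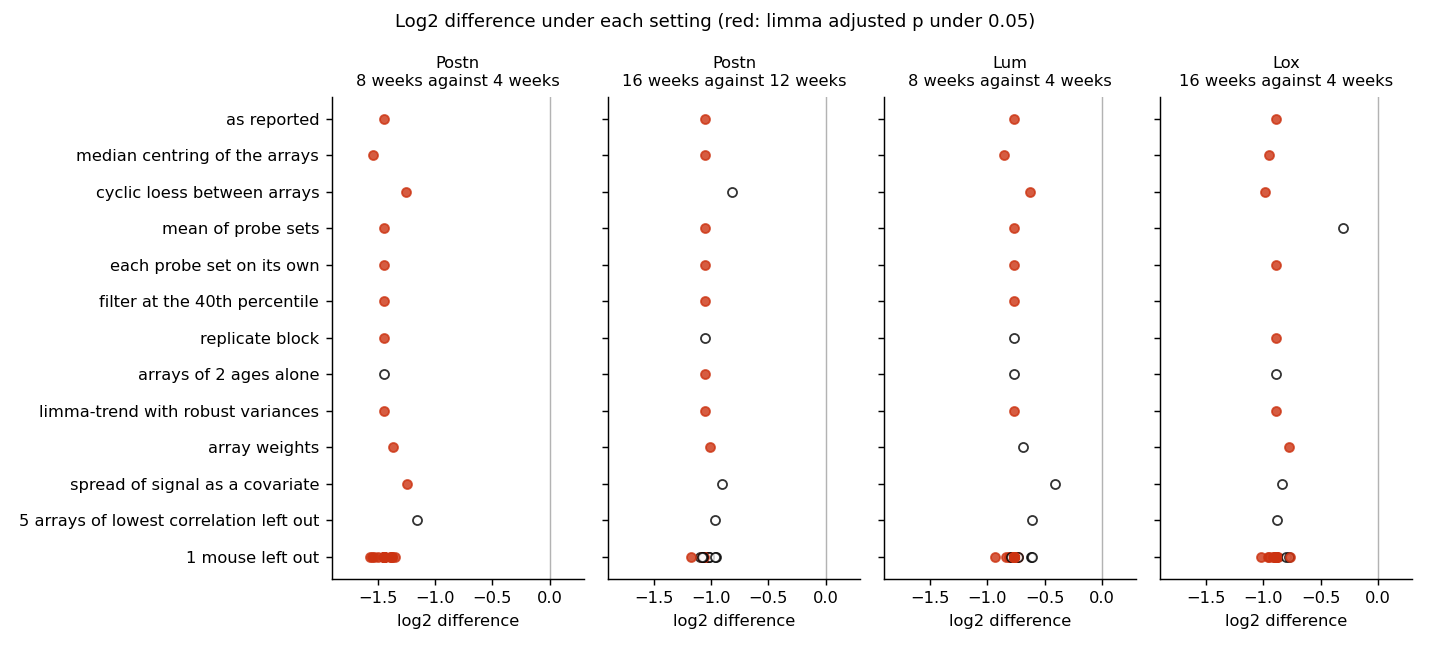
Log2 difference (x axis) of Postn at 8 against 4 and 16 against 12 weeks, Lum between 4 and 8 weeks and Lox between 4 and 16 weeks, as reported and under each other setting of the analysis (y axis), with red points for a limma adjusted p under 0.05 and all 20 fits without 1 mouse on the last line. All points lie left of 0, and Postn between 4 and 8 weeks is red in all but 2 settings, the arrays of 2 ages alone and the fit without 5 arrays.

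Of 54 other measured genes of the matrix, listed by role, 3 were lower and 2 higher between 4 and 8 weeks, or 9.26% called beside 7.39% of all genes, with a median log2 difference of 0.026 beside 0.050 over all genes. Of 20 matricellular and adhesive glycoprotein genes, Fstl1, a secreted relative of Sparc, fell by 1.26 between 4 and 8 weeks, Ccn2, the connective tissue growth factor gene, fell by 1.25, and Nid1, which links laminin to basement membrane collagen, fell by 0.98 (limma adjusted p = 0.0229, 0.0361 and 0.0185). Of 14 elastic fibre genes, the microfibril-associated Mfap2 and Mfap4 rose by 0.57 and 0.50 (limma adjusted p = 0.0477 for both), where Eln had 0.053. Of 10 genes of the lysyl oxidase family and collagen processing, and of 10 genes of other proteoglycans, 0 passed the limma test in this period. Between 4 and 16 weeks 3 of 54 were lower, as Fstl1 fell by 1.22, Nid1 fell by 0.81 and the proteoglycan gene Fmod fell by 0.54 (limma adjusted p = 0.0208, 0.0313 and 0.0403). These 3 are 5.56% of the 54, beside 3.63% of all genes called. In the 2 later periods 0 of 54 passed the limma test. With the spread of signal in the model 0 of these genes passed in the comparisons named, and between 4 and 8 weeks the log2 differences were -0.63 for Fstl1, -0.48 for Ccn2, -0.61 for Nid1 and 0.33 for both Mfap2 and Mfap4 (limma adjusted p = 0.243 to 0.514).

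Of 5 measured fibrillar collagen genes, whose proteins bind those of Dcn, Lum and Postn, 3 were lower between 4 and 8 weeks. Of all genes 4.13% were called lower there. Col3a1 fell by 2.21, Col1a2 fell by 1.17 and Col5a2 fell by 0.86 (limma adjusted p = 0.00445, 0.0392 and 0.018). Col3a1 and Col1a2 were in the brightest decile, whose median in this period was -0.49, and Col5a2 was in decile 7, with 0.0026. Between 4 and 16 weeks 3 of the 5 were lower, where 3.12% of all genes were called lower. Col3a1 fell by 2.32, Col1a1 fell by 0.79 and Col5a2 fell by 0.76 (limma adjusted p = 0.0023, 0.0452 and 0.0191). Between 4 and 12 weeks Col3a1 fell by 1.78 (limma adjusted p = 0.0441). With the spread of signal in the model Col3a1 still fell, by 1.52 between 4 and 8 weeks and by 1.68 between 4 and 16 weeks (limma adjusted p = 0.0259 and 0.00312), whereas Col1a2 and Col5a2 had -0.60 and -0.59 in the first comparison (limma adjusted p = 0.481 and 0.239) and Col1a1 and Col5a2 -0.55 and -0.51 in the second (limma adjusted p = 0.315 and 0.16). Between 8 and 12 weeks, when Postn had 0.84, the median of the 5 collagens was 0.24, and between 12 and 16 weeks, when Postn fell, it was 0.011.

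Markers of the cells that make or surround the matrix were taken beside these values. Of 10 fibroblast markers 0 passed the limma test in any comparison. Their mean log2 signal ran from 5.57 to 5.94 at 4 weeks, 5.38 to 5.66 at 8 weeks, 5.48 to 5.65 at 12 weeks and 5.26 to 5.87 at 16 weeks, and the markers lay between the 16.6 (Twist2) and 88.9 (Vim) percentile of mean signal. Of 7 smooth muscle and pericyte markers 2 were lower between 4 and 8 weeks, where 4.13% of all genes were called lower. Myh11 fell by 1.12 and Rgs5 fell by 0.99 (limma adjusted p = 0.0415 and 0.0246), while single markers of the list ran from -1.12 to 0.52. The mean log2 signal of the list ran from 6.57 to 7.41 at 4 weeks and from 6.17 to 7.02 at 8 weeks. At 12 weeks it ran from 6.63 to 7.07 and at 16 weeks from 6.19 to 6.76. Between 4 and 16 weeks Rgs5 fell by 0.92 (limma adjusted p = 0.0283), where 3.12% of all genes were called lower. The median log2 difference of the 7 was -0.87, with single markers from -1.01 to 0.48. Their medians in the 3 periods were -0.39, 0.14 and -0.45, with the signs of Postn. Those of the fibroblast markers were -0.26, -0.059 and 0.054, with the sign of Postn between 4 and 8 weeks only. Salivary epithelial markers, of which 0 of 10 passed the limma test in any comparison, ran from 7.93 to 10.5 at 4 weeks, 6.89 to 9.60 at 8 weeks, 7.96 to 9.48 at 12 weeks and 7.19 to 9.65 at 16 weeks. Their median log2 difference was -0.87 between 4 and 8 weeks, 0.65 between 8 and 12 weeks and -0.67 between 12 and 16 weeks, also the signs of Postn, Sparc, Dcn and Lum. The brightest decile of all genes had the same signs. Among 5 lymphocyte markers Cd3e rose by 0.41 between 4 and 8 weeks (limma adjusted p = 0.0446), and of the endothelial, skeletal muscle and adipocyte markers (6, 6 and 3 measured) 0 passed the limma test. No list among these had medians with the signs of Postn in all 3 periods. With the spread of signal in the model 0 of Myh11, Rgs5 and Cd3e passed between 4 and 8 weeks (limma adjusted p = 0.304 to 0.499), and Rgs5 did not pass between 4 and 16 weeks (limma adjusted p = 0.232). The part of cell makeup in the falls of Postn, Lum and Lox was not tested.

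Among mice of the same age the 9 genes did not move as a block. On values centred on each age, Pearson correlations over the 36 pairs of genes and 20 mice ran from -0.46 to 0.67 with a median of 0.10, and 63.9% were above 0, beside a median of 0.014 and 51.4% over all pairs of genes. Points share their array, and with it the spread of signal. With that spread removed the median was 0.087 and 55.6% were above 0, beside 0.026 and 53.3% over all pairs of genes. Fn1 and Eln had r = 0.67 and Spearman's rho = 0.66 (permutation within age, p = 0.00086 and 0.00321, adjusted over the 36 pairs 0.031 and 0.0578), and r = 0.62 without the 2 mice farthest from the median. Eln and Thbs2 had r = 0.63 and rho = 0.67 (permutation within age, p = 0.00251 and 0.00277, adjusted 0.0452 and 0.0578), and r = 0.71 without the 2 farthest mice. With the spread of signal removed both pairs had r = 0.68 and 0.67 (permutation within age, adjusted p = 0.0117 for both) and rho = 0.69 and 0.78 (adjusted p = 0.0382 and 0.00792). These correlations rest on a single probe set per gene. Over the 20 arrays, on uncentred values, the one used correlated with the other at 0.16 for Eln and -0.13 for Fn1. For Thbs2 it had 0.56 and 0.078 with the others. Postn, Lum and Lox, the genes lower at 16 than at 4 weeks, had r = 0.46 (Postn and Lum), 0.34 (Postn and Lox) and 0.44 (Lox and Lum) on the centred values, of which 0 passed after adjustment over the 36 pairs.

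**Figure D5:**
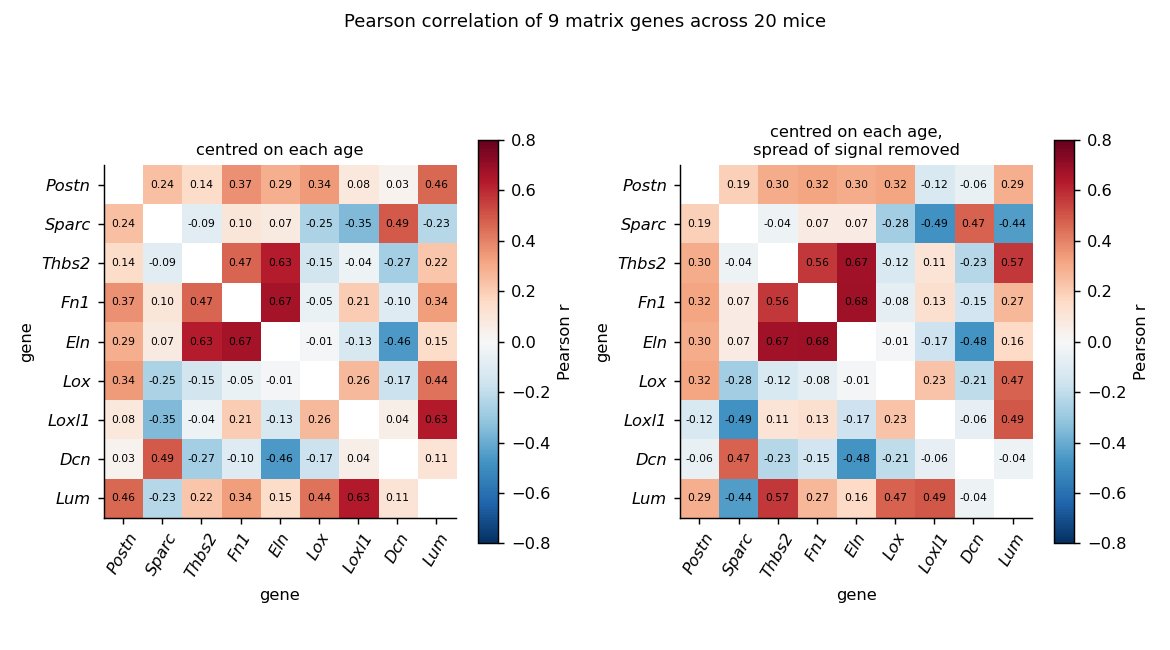
Pearson correlation between the 9 genes over 20 mice, on values centred on each age (left) and with the spread of signal also removed (right); both axes list the genes and colour gives r. Eln pairs with Fn1 and Thbs2 at 0.63 to 0.68 in both panels, and Dcn is below 0 against Eln at -0.46 and -0.48.

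Genes outside the 10 whose levels were most like theirs over the 20 arrays were Col15a1, a basement membrane collagen, and Col1a1, the main fibrillar collagen chain, with mean correlations of 0.45 and 0.44 with the 9 genes, then Pepd, Nxn and Emc8 with 0.44 each, beside a median of 0.026 over all genes. For Col15a1 the correlations with single genes ran from 0.038 to 0.83. On values centred on each age the 5 most alike were Usp4, Snx10, Nup37, Rapgef1 and Nkiras2, with means of 0.39 to 0.40 beside a median of 0.060. None of these 5 was among the first 5 over all arrays.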

How the data were processed

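The authors hybridised total RNA of each mouse to its own Affymetrix mouse genome array, and the values analysed were log2 signals that they deposited after robust multichip analysis (RMA: background correction, quantile normalization and summary by probe set) in Expression Console. The probe annotation is GEO's for this platform, in which 34958 of the 45101 probe sets have a single symbol (34754 found in RefSeq GRCm38.p6), 932 have several and 9211 are absent. Quantile normalization gives each array like distributions of probe intensity, so levels are relative within an array. The number of arrays, 5 per age, limits the precision.

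From these values, limma 3.58.1 in R 4.3.3 was fitted to 18194 genes on all 20 arrays, with age as factor. Adjustment of p-values followed Benjamini and Hochberg over every gene tested, and genes under 0.05 were called. The moderated test stands in for the ranking by SAM in the study's methods, which would need regrouped samples for its q-values. The 10 genes and the lists of other genes were chosen with earlier results of these data known. The genes named were the 10, the called genes of largest difference in each list (at most 3 per comparison), the 5 genes most alike by mean correlation and the genes that check the labels. Correlations were tested with 100000 permutations within age. As Fbn1 had no probe set, 36 pairs were formed, fewer than planned for 10 genes. Other settings tried were cyclic loess or median centring between arrays, averaging or separate testing of the probe sets of a gene, removal of genes under the 40th percentile of signal, a replicate block, fits to 2 ages only, robust variances with a trend, array weights, the spread of signal as a term, and leaving out single mice. The fit without the 5 arrays of lowest median correlation was chosen after seeing the data. The steps were tested on simulated data.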

Additional observations from a re-analysis of the deposited data

Results flagged for a closer look

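In 36 groups of 5 mice (9 genes at 4 ages), 4 held a mouse far from the other 4 by Dixon's criterion (gap to the nearest over the range of the group), where chance gives about 1 in 20 groups. Postn at 16 weeks was 5.83 in mouse 2, below the 6.21 to 6.29 of the others, on an array that stood apart in correlation too. Fn1 at 4 weeks was 6.11 in mouse 3, below the 6.54 to 6.61 of the others. Lox at 16 weeks was 3.82 in mouse 1, below the 4.34 to 4.55 of the others. Thbs2 at 12 weeks was 5.92 in mouse 3, above the 5.63 to 5.71 of the others. The causes were not tested.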

How the results depend on the processing

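The 2 genes called between 4 and 8 weeks became 1 with array weights and with the spread of signal in the model. They became 0 with the arrays of 2 ages alone and without the 5 arrays, and 1 to 3 with 1 mouse left out. Of all 18194 genes, 210 were called with array weights, 16 with the spread of signal, 2 with 2 ages alone and 4 without the 5 arrays. The 1 called between 12 and 16 weeks became 0 with cyclic loess, the covariate or the 5 arrays left out, and 0 to 1 with 1 mouse left out. With cyclic loess, the covariate and the 5 arrays left out, 37, 27 and 9 of all genes were called, beside 35 as reported. The 3 called between 4 and 16 weeks became 1 with 2 ages alone, the covariate or the 5 arrays left out, and 1 to 3 with 1 mouse left out. With 2 ages alone, the covariate and the 5 arrays left out, 75, 148 and 20 of all genes were called, beside 660 as reported. The 0 between 8 and 12 weeks became 0 to 1 with 1 mouse left out (Postn, limma adjusted p = 0.0329 without mouse 4 at 8 weeks). The 0 between 4 and 12 weeks became 1 with array weights, where 77 of all genes were called, beside 17 as reported. Between 4 and 8 weeks Lox passed without mouse 2 at 4 weeks (limma adjusted p = 0.0454), and Sparc passed with averaged probe sets.

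Replicate numbers were not taken to pair the mice. Over 15 pairs of same-numbered mice of neighbouring ages, deviations from the group means correlated at -0.56 to 0.45, with 5 of 15 over 0.1. Between ages that are not neighbours the lowest was -0.57 and the highest 0.58, both between 8 and 16 weeks. Mice of different number were not compared, so a pairing was not tested. With a replicate block, 1 of 9 genes was called between 4 and 8 weeks, 0 between 12 and 16 weeks and 2 between 4 and 16 weeks. Of all 18194 genes, 245, 15 and 262 were called in these comparisons with the block.

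Changes of sign were confined to comparisons in which the gene was not called. Between 4 and 8 weeks Eln, Loxl1 and Thbs2 had -0.037, -0.040 and -0.035 with median centring; Fn1, Loxl1 and Thbs2 had 0.0031, -0.11 and -0.0056 with cyclic loess and 0.070, -0.014 and -0.016 without the 5 arrays; Fn1 and Lox had 0.068 and 0.022 with averaged probe sets; Fn1 and Thbs2 had 0.029 and -0.022 with the covariate. Between 12 and 16 weeks Loxl1 and Dcn had -0.018 and 0.11 with cyclic loess, and Fn1 and Thbs2 -0.083 and -0.067 with averaged probe sets. Between 4 and 16 weeks Eln and Dcn had 0.089 and 0.070 with cyclic loess, Eln and Loxl1 0.030 and 0.065 with averaged probe sets and 0.065 and 0.17 without the 5 arrays, Eln 0.048 with array weights, and Loxl1 0.11 with the covariate. With 1 mouse left out, between 4 and 8 weeks Fn1 ran from -0.14 to 0.023, Eln from -0.073 to 0.19, Loxl1 from -0.055 to 0.17 and Thbs2 from -0.0078 to 0.13; between 12 and 16 weeks Fn1 ran from -0.081 to 0.14, Eln from -0.0098 to 0.13 and Loxl1 from -0.064 to 0.13; and between 4 and 16 weeks Eln ran from -0.094 to 0.045 and Loxl1 from -0.18 to 0.037. The causes were not tested.

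Calls over all genes, the background of these counts, moved widely too. Between 4 and 8 weeks they went from 1345 to 2 with 2 ages alone and 4 without the 5 arrays, and ran from 14 (without mouse 5 at 4 weeks) to 2694 (without mouse 4 at 8 weeks) with 1 mouse left out. They ran from 1 to 225 between 8 and 12 weeks (1 as reported; highest without mouse 4 at 8 weeks), from 9 to 1035 between 12 and 16 weeks (35 as reported, 1164 with array weights) and from 81 to 3003 between 4 and 16 weeks (660 as reported), both highest without mouse 1 at 16 weeks and lowest without mouse 2 at 16 weeks (for 12 to 16 weeks, mouse 4 too). Lox and Loxl1 were not tested under the filter on dim genes. Ages are groups of different mice, so age and any handling shared within an age cannot be told apart.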

Other observations

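Genes most like Postn by itself, a list chosen after its values were seen, were not matrix genes. Over the 20 arrays the 5 highest Pearson correlations with Postn among 18193 genes were those of Lrrc58 (0.91), Mthfd2 (0.91), Slc7a5 (0.91), Trib3 (0.899) and Ndufs4 (0.89), beside a median of -0.045 over all genes. Mthfd2 encodes a mitochondrial enzyme of folate metabolism, Slc7a5 a transporter of large amino acids, Trib3 a pseudokinase known for its response to amino acid shortage, and Ndufs4 a subunit of respiratory complex I. These 5 genes were picked by likeness to Postn over the same arrays, so Postn-like differences between ages follow from the choice. Such differences are no separate result, and no p-value is given for them. Mthfd2 fell by 1.62 between 4 and 8 weeks and by 1.49 between 12 and 16 weeks, and Slc7a5 fell by 1.90 and 1.67. Lrrc58, Trib3 and Ndufs4 also had lower means at 8 than at 4 weeks and at 16 than at 12 weeks. On values centred on each age the correlations were 0.75 for Lrrc58, 0.45 for Mthfd2, 0.45 for Slc7a5, 0.70 for Trib3 and 0.80 for Ndufs4, and with the spread of signal also removed 0.71, 0.26, 0.24, 0.64 and 0.85 in this order. Of the other 8 matrix genes, Lum was the most like Postn, with 0.79 and rank 258. Lox followed with 0.59 and rank 2366, then Sparc with 0.59 and rank 2457. These correlations describe 20 arrays that share the spread of signal and were not tested.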
